A study of Mus musculus with 24 samples.

Results

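The 28 genes described here encode enzymes and regulators of cholesterol and fatty acid synthesis, and they were chosen by name from 45513 genes in the count tables. All 28 were found and passed the filter on low counts in each comparison. They comprised 4 genes that control the pathway (Srebf1, Srebf2, Scap and Insig1), 7 for the mevalonate and isoprenoid steps (Acat2, Hmgcs1, Mvk, Pmvk, Mvd, Idi1 and Fdps), 11 for the sterol steps (Fdft1, Sqle, Lss, Cyp51, Tm7sf2, Msmo1, Nsdhl, Hsd17b7, Ebp, Sc5d and Dhcr7), 5 for fatty acid synthesis (Acaca, Fasn, Elovl6, Scd1 and Scd2) and 1 for sterol transport (Stard4).

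Cholesterol is built from acetyl-CoA. Mevalonate is formed first, is turned into isoprenoid units that are joined to squalene, and squalene is closed to lanosterol, which is trimmed and reduced to cholesterol. Fatty acids start from the same acetyl-CoA, which is carboxylated, extended to palmitate, elongated and desaturated. Both routes are driven by SREBP transcription factors, which the escort protein SCAP carries out of the endoplasmic reticulum when sterols are scarce, while INSIG proteins hold SCAP back when sterols are plentiful. Secretory cells of the gut need these lipids for the membranes of the endoplasmic reticulum and of secretory granules.

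RNA was sequenced from live EpCAM+tdTom+ cells sorted from the small intestine (SI, its proximal stretch) and the colon of adult mice on a C57BL/6 background. Both lines carried CreERT2 downstream of Atoh1, the transcription factor gene of the secretory lineage, together with a Rosa26 tdTomato reporter. In Atoh1(WT)CreERT2 mice (WT) the Atoh1 protein was unaltered, and in Atoh1(9S/T-A)CreERT2 mice (9S/T-A) its serine or threonine residues followed by proline had been replaced by alanine at 9 sites. All animals received a single 3 mg dose of tamoxifen and were sampled the day after, so that the cells studied were those in which Atoh1 was active at labelling. SI and colon of each line made 4 groups of 6 libraries, numbered 2 to 7, of which 3 came from females and 3 from males. The sources differ on whether 6 mice were used in all or for each genotype, and the labels do not tie libraries to mice, so the p-values measure only the spread between these libraries. Levels are given as CPM, in which each count is set against the effective size of its library after TMM scaling of all 24 libraries. A gene is said to have risen, fallen or been called where its adjusted p was under 0.05.

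Total counts ranged from 35967875 to 65796932 per library, and the lowest count of any of the 28 genes in any library was 9. Of 60 pairs of libraries from the same group, 0 were identical. The epithelial genes Epcam, Cdh1 and Krt8 were high in all libraries, and goblet genes were high in both tissues. The summed level of 6 goblet genes (Muc2, Tff3, Spdef, Fcgbp, Agr2 and Clca1) lay between 211100 and 353500 CPM in SI and between 30190 and 73240 CPM in colon. That of 5 Paneth genes lay between 36550 and 72800 CPM in SI and between 55.0 and 141 CPM in colon, an organ that has no typical Paneth cells. The leukocyte list reached 1545 to 2863 CPM in SI, mostly through Lyz2, which Paneth cells also express. In colon it lay between 4.52 and 11.8 CPM in WT (median 9.46) and between 10.5 and 467 CPM in 9S/T-A (median 80.5). The part of this difference in the colon genotype comparison was not tested. The stromal list stayed at or below 18.7 CPM, with the collagen gene Col3a1 at 0 in all libraries. One library stood apart for the genes described here: WT colon replicate 3 had the highest level in its group for 24 of the 28 genes.

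Of the genes described here, 22 had at least 1 promoter in the RefSeq table used (GRCm38.p6, from 250 bases before to 50 bases after the start). The sterol regulatory element, the site that SREBP proteins bind, was searched for by its core TCACNCCAC on both strands. This exact core was found in 1 of the 22 genes, Hmgcs1, which encodes HMG-CoA synthase of the mevalonate route, and in 1.44% of all 27025 genes of the table. Elements that differ from the core or lie outside the window were not counted, so a gene without a match may still have one. The stretch is shown because it holds this core. It covers the 250 bases before the start, chr13:119690101-119690350 on the + strand, with the element in capitals, beginning 137 bases before the start.

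Hmgcs1: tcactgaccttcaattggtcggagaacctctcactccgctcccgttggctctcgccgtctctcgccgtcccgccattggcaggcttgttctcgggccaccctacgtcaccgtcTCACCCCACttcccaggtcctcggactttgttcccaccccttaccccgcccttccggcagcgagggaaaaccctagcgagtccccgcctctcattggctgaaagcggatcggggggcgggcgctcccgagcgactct

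The NF-Y box CCAAT, bound by a factor known to act beside SREBP, was present in 18 of the 22 genes (81.8%) and in 41.1% of all genes of the table. The Sp1 box GGGCGG was likewise present in 18 (81.8%), against 38.2% of all genes. The E-box CACGTG, which SREBP-1 can also bind, was present in 5 (22.7%), namely Dhcr7, Hsd17b7, Insig1, Sc5d and Scap, against 8.09% of all genes. All 3 were searched on both strands, and these matches describe the letters in the windows and no measured binding.

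The pathway was transcribed throughout in all 4 groups, and the 28 genes together took up 2457 ± 184 CPM in SI and 2900 ± 652 CPM in colon of WT mice (mean ± SD, n = 6). The sums in 9S/T-A mice were 2403 ± 324 CPM and 3105 ± 791 CPM. Without the desaturase genes Scd1 and Scd2 the mean sums were 2391 and 2345 CPM in WT and 2364 and 2508 CPM in 9S/T-A. Per kilobase of exon, Hmgcs1 ranked first in WT SI (109 CPM per kb) and 9S/T-A SI (103 CPM per kb), followed by Ebp (65.4 and 71.0 CPM per kb), the sterol isomerase gene. In colon Scd2 ranked first, at 99.0 CPM per kb in WT and 106 CPM per kb in 9S/T-A, and Hmgcs1 second, at 84.7 and 93.6 CPM per kb. Scd2 had ranked 16th in WT SI and 21st in 9S/T-A SI. Scd1 ranked last of the 28 in SI, at 0.217 CPM per kb in WT and 0.169 CPM per kb in 9S/T-A.

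**Figure D1:**
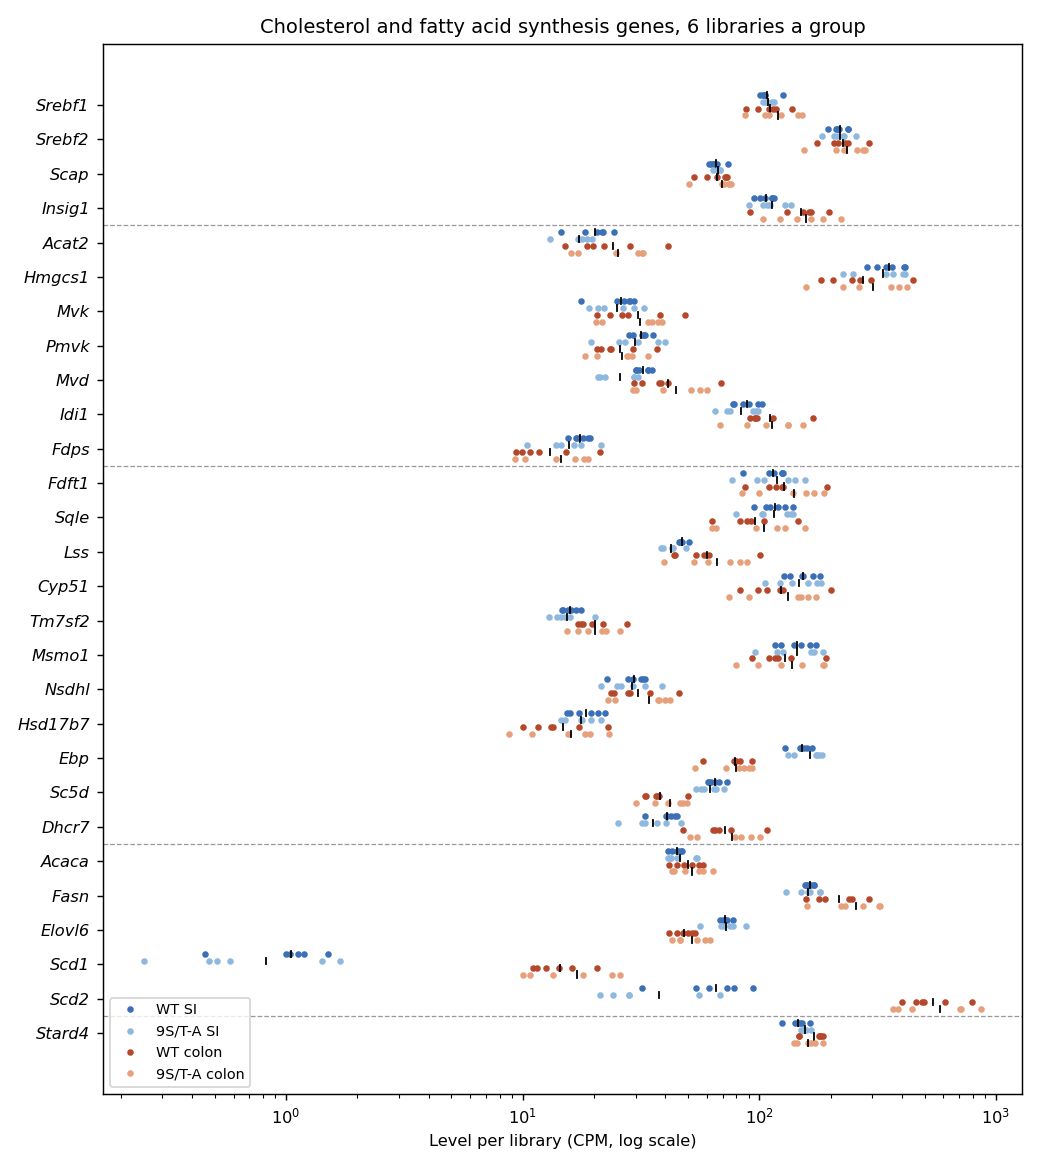
Level of each gene in each library, in CPM on a log scale, with 1 point for a library, 1 color for a group and a black bar at the group mean. Genes are in pathway order and dashed lines part the roles (control, mevalonate and isoprenoid steps, sterol steps, fatty acid synthesis, sterol transport). Most genes overlap between the 4 groups, while Scd1 and Scd2 lie at 0.252 to 1.69 and 21.3 to 94.1 CPM in SI and at 10.03 to 25.9 and 368 to 861 CPM in colon.

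The genotype comparison asks whether preventing phosphorylation of ATOH1 alters expression of the pathway in Atoh1+ cells. No gene of the pathway passed the test between 9S/T-A and WT in SI (0 of 28, edgeR quasi-likelihood test, adjusted p under 0.05 over 16236 genes, and 0 by DESeq2), against 1.94% of all genes. At an unadjusted p under 0.05 there were 3 of 28, against 15.7% of all genes. The log2 fold changes were below 0 for 19 genes and above 0 for 9, with a median of -0.05, while 50% of all genes were above 0. All 7 mevalonate and isoprenoid genes were below 0, with differences from -0.33 to -0.05, and all 4 control genes were above 0 and at most at 0.07. The 2 genotypes overlapped in all 28 genes, where 2.07% of all genes did not overlap.

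Mvd, which encodes the decarboxylase that makes isopentenyl diphosphate, had the smallest p in SI. It ranged from 30.0 to 35.1 CPM in WT (median 32.5) and from 20.8 to 30.8 CPM in 9S/T-A (median 25.9). The ranges overlapped only through 9S/T-A replicate 3, and the other 5 libraries of that group lay below all WT libraries. The log2 fold change was -0.33 (SE 0.108, adjusted p = 0.143 by edgeR).

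Scd2, a stearoyl-CoA desaturase gene, ranged from 31.9 to 94.1 CPM in WT SI (median 67.1) and from 21.3 to 68.0 CPM in 9S/T-A SI (median 28.2). Most 9S/T-A libraries lay low, but replicates 3 and 4 reached the WT levels, and WT replicate 2 lay among the 9S/T-A values. The log2 fold change was -0.80 (SE 0.302, adjusted p = 0.206 by edgeR), with a 95% interval from -1.45 to -0.16. With the replicate number as a block, Scd2 was the 1 pathway gene called in SI, as given in the last section.

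Lss encodes lanosterol synthase, which closes squalene epoxide to the first sterol. It ranged from 45.8 to 50.6 CPM in WT SI (median 46.6) and from 38.3 to 48.9 CPM in 9S/T-A SI (median 42.8), and the ranges overlapped. Its log2 fold change was -0.15 (SE 0.0649, adjusted p = 0.272 by edgeR). Acat2, which condenses acetyl-CoA to acetoacetyl-CoA, ranged from 14.5 to 24.4 CPM in WT SI (median 21.1) and from 13.1 to 19.6 CPM in 9S/T-A SI (median 17.6), again overlapping. Its log2 fold change was -0.23 (SE 0.124, adjusted p = 0.392 by edgeR).

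Although none of the changes passed the test, the intervals bound their size. For 26 of the 28 genes in SI the 95% interval lay within a 1.5-fold change in either direction. The exceptions were Scd1, at -0.35 with an interval from -1.21 to 0.51, and Scd2. The intervals of the 4 control genes lay between -0.17 and 0.27, with Srebf1, which encodes SREBP-1, at 0.01 and Srebf2, which encodes SREBP-2, close to 0.

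In colon, 0 of 28 genes passed the test between the genotypes (by edgeR over 16997 genes, and by DESeq2), against 0.318% of all genes, and 0 had an unadjusted p under 0.05, against 8.81% of all genes. The log2 fold changes were above 0 for 27 of the 28 genes, Stard4 being the exception at -0.06, with a median of 0.13, while 51.7% of all genes were above 0. The libraries of the 2 genotypes overlapped in all 28 genes, where 0.906% of all genes did not overlap. These genes moved together from library to library, as shown further on, so the 27 signs are not separate observations.

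Fasn, the fatty acid synthase gene, had the smallest p in colon. It ranged from 158 to 292 CPM in WT (median 214) and from 159 to 325 CPM in 9S/T-A (median 253). The ranges were almost the same at their lower end, and the log2 fold change was 0.25 (SE 0.173, adjusted p = 0.814 by edgeR). Elovl6, which elongates palmitate to stearate, ranged from 41.6 to 53.5 CPM in WT colon (median 48.7) and from 42.6 to 61.7 CPM in 9S/T-A colon (median 50.5). Its log2 fold change was 0.12 (SE 0.0902, adjusted p = 0.854 by edgeR), with a 95% interval from -0.07 to 0.31.

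Sc5d, the lathosterol oxidase gene late in the sterol route, ranged from 32.8 to 49.9 CPM in WT colon (median 36.8) and from 30.2 to 49.6 CPM in 9S/T-A colon (median 43.7). Scd1, a paralogue of Scd2, ranged from 11.1 to 20.7 CPM in WT colon (median 13.4) and from 10.03 to 25.9 CPM in 9S/T-A colon (median 15.7). Both pairs of groups overlapped, with log2 fold changes of 0.16 (SE 0.123) and 0.26 (SE 0.233), and adjusted p = 0.858 and 0.906 by edgeR. The intervals were wider than in SI, and 16 of the 28 lay within a 1.5-fold change.

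**Figure D2:**
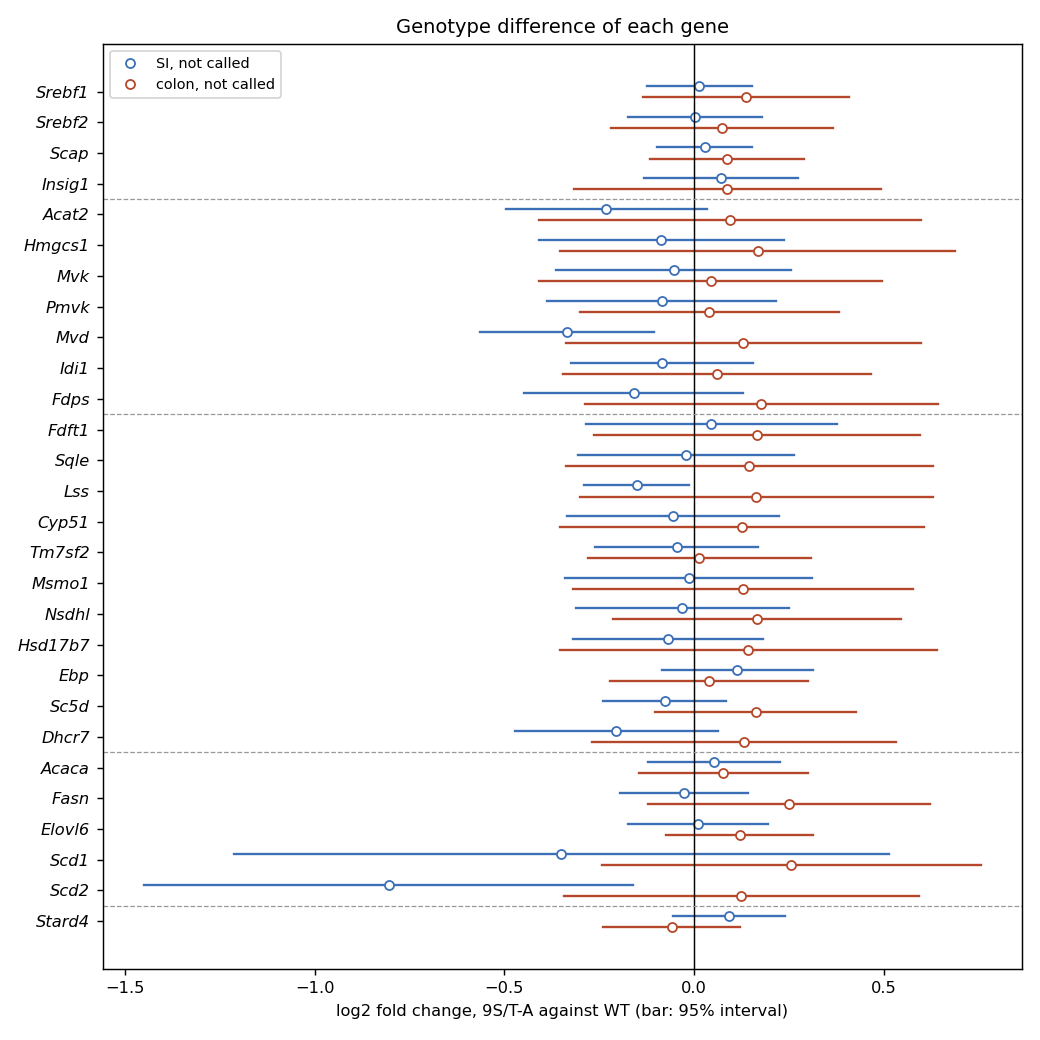
log2 fold change of 9S/T-A against WT for each gene (x axis, points) with its 95% interval (bars), in SI (blue) and colon (red), 6 libraries a group, genes in pathway order. All points are open because 0 of 28 genes passed the test in either tissue, and 27 of the 28 colon points lie above 0 with intervals that include 0.

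The product of genotype and tissue asks whether the genotype difference itself differed between colon and SI. It passed the test in 0 of 28 genes (edgeR over 17953 genes and all 24 libraries, and 0 by DESeq2), against 0.412% of all genes, and 1 gene had an unadjusted p under 0.05, against 9.69% of all genes. That gene was Scd2, at 0.90 (SE 0.401, adjusted p = 0.445 by edgeR). The interval from 0.08 to 1.73 leaves the size of this difference poorly determined.

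Another 28 genes of lipid supply were counted beside the pathway: further synthesis enzymes, genes of SREBP processing and sterol uptake, and genes of the LXR route and sterol efflux. In colon 0 of these 28 passed the genotype test by edgeR, against 0.318% of all genes, with 1 at an unadjusted p under 0.05, against 8.81%. In SI 1 passed, against 1.94% of all genes, with 9 at an unadjusted p under 0.05, against 15.7%. The gene that passed was Acacb, which encodes the mitochondrial acetyl-CoA carboxylase whose product restrains fatty acid oxidation. It ranged from 3.42 to 8.53 CPM in WT SI (median 7.39) and from 2.25 to 4.14 CPM in 9S/T-A SI (median 3.64). The groups overlapped through WT SI replicate 7, at 3.42 CPM, while the other WT libraries all lay above the 9S/T-A libraries. Acacb fell by 1.06 on the log2 scale (SE 0.206, adjusted p = 0.0149 by edgeR), and its cytosolic counterpart Acaca in the list above was at 0.05 (SE 0.0818). The product of genotype and tissue was 0.95 for Acacb (adjusted p = 0.0608 by edgeR), short of the threshold, and below it with DESeq2 (adjusted p = 0.00682). Among female libraries alone the fall in SI was -0.69 (adjusted p = 0.9999 by edgeR), with 3 libraries a group. Among male libraries alone, also 3 a group, it was -1.41 (adjusted p = 0.0191 by edgeR). Marker sums also differed between these groups. The goblet sum lay between 211100 and 316200 CPM in WT SI and between 224600 and 353500 CPM in 9S/T-A SI, and the absorptive sum between 1934 and 5207 CPM and between 3281 and 6320 CPM. The Paneth sum lay between 46200 and 72800 CPM and between 36550 and 57660 CPM. Its members Mmp7 (733 to 1251 against 218 to 665 CPM) and Itln1 (6832 to 12160 against 3734 to 6495 CPM) did not overlap. Its members Lyz1 (20720 to 32500 against 17820 to 26980 CPM) and Pnliprp2 (331.9 to 635.4 against 287.9 to 476.5 CPM) did overlap. The cycling sum of 4 genes lay between 189 and 262 CPM and between 146 and 225 CPM, the tuft sum of 3 genes between 32.9 and 70.0 CPM and between 10.5 and 58.7 CPM, and the stromal sum between 6.54 and 18.7 CPM and between 3.27 and 7.96 CPM. The part of these markers in the fall of Acacb was not tested.

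The comparison of colon with SI asks how the pathway differs between Atoh1+ cells of the 2 tissues. The 2 desaturase genes Scd1 and Scd2 rose in colon by more than 8-fold in both genotypes, Dhcr7, Fasn, Insig1 and Tm7sf2 rose by smaller amounts, and Ebp, Sc5d and Elovl6 fell (Sc5d and Elovl6 not with plain library totals, as given below), whereas the SREBP genes themselves and most of the mevalonate route did not pass the test. In WT 11 of 28 genes were called (6 higher and 5 lower), against 63.6% of all genes (33.1% higher and 30.4% lower). In 9S/T-A 12 were called (9 higher and 3 lower), against 60.9% (32.9% higher and 28% lower). The median log2 fold change was 0.07 in WT and 0.13 in 9S/T-A, and over all genes tested it was 0.03 and 0.04. With the replicate number as a block, 18 of the 28 were called in WT and 13 in 9S/T-A. Over all genes this block gave 11716 of 16979 and 11634 of 16938, and the labels do not tie numbers to mice.

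These directions are relative to the TMM scaling. SI libraries spend far more of their counts on a few secretory genes, and with plain library totals the median of all genes moved to 0.74 in WT and 0.85 in 9S/T-A. The calls then became 23 higher and 1 lower in WT and 26 higher and 1 lower in 9S/T-A, where 83.3% and 83.8% of all genes were called, and Elovl6 in both genotypes, Sc5d in 9S/T-A, and Fdps and Pmvk in WT changed sign. Counted from the all-gene median of each scaling, 15 genes lay above and 13 below in WT and 16 above and 12 below in 9S/T-A under both scalings. With RLE factors it was 14 and 14 in WT and 16 and 12 in 9S/T-A. A change of scaling moves all genes by nearly the same amount, so these counts could hardly differ and do not bear on the directions. Because these are bulk samples, fewer cells of a type and less RNA per cell cannot be told apart. The goblet and Paneth sums given above differed between the tissues in all libraries. The goblet sum was carried mostly by Fcgbp, with means of 150800 CPM in WT SI and 9949 CPM in WT colon. Tff3, Muc2 and Clca1 were also lower in WT colon. Agr2 went the other way (3368 and 3730 CPM) and Spdef was nearly level (338 and 333 CPM), so this sum does not measure goblet cell content. The part of these markers in the differences below was not tested.

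Scd1, which desaturates stearate to oleate and lies at chr19:44394451-44407709, ranged from 0.457 to 1.501 CPM in WT SI (median 1.08) and from 11.1 to 20.7 CPM in WT colon (median 13.4). In 9S/T-A it ranged from 0.252 to 1.69 CPM in SI (median 0.543) and from 10.03 to 25.9 CPM in colon (median 15.7). All 12 colon libraries lay above all 12 SI libraries. It rose by 3.75 (SE 0.229, 13.5-fold, adjusted p = 1.25e-09 by edgeR) in WT and by 4.34 (SE 0.406, 20.2-fold, adjusted p = 2.4e-07 by edgeR) in 9S/T-A on the log2 scale.

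Scd2, its paralogue at chr19:44293676-44306864 on the opposite strand, ranged from 402 to 790 CPM in WT colon (median 491) and from 368 to 861 CPM in 9S/T-A colon (median 575), against the SI ranges given above. Again no SI library reached any colon library, since the highest SI library had 94.1 CPM. Scd2 rose by 3.01 (SE 0.236, 8.06-fold, adjusted p = 2.38e-08 by edgeR) in WT and by 3.93 (SE 0.336, 15.2-fold, adjusted p = 8.83e-08 by edgeR) in 9S/T-A. Scd1 counts were 1.05% to 2.71% of those of Scd2 in SI libraries and 2.35% to 3.65% in colon libraries. Of the 50-base stretches of Scd1 transcripts, 2.97% also occur in Scd2, and whether reads of the abundant Scd2 contributed to the Scd1 counts was not tested.

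Dhcr7 encodes the reductase of the last step to cholesterol. It ranged from 32.8 to 45.1 CPM in WT SI (median 41.5) and from 47.6 to 108 CPM in WT colon (median 66.3). In 9S/T-A it ranged from 25.2 to 46.6 CPM in SI (median 34.8) and from 51.1 to 101 CPM in colon (median 81.5). The tissues did not overlap in either genotype, and Dhcr7 rose by 0.77 (SE 0.15, adjusted p = 0.000341 by edgeR) in WT and by 1.09 (SE 0.175, adjusted p = 6.71e-05 by edgeR) in 9S/T-A.

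Insig1, the sterol-dependent brake on SREBP processing and itself an SREBP target, ranged from 94.9 to 115 CPM in WT SI (median 109) and from 91.3 to 197 CPM in WT colon (median 158). All but a single WT colon library lay above the SI range, and that library was the lowest of the 12. The rise was 0.45 (SE 0.139, adjusted p = 0.0102 by edgeR) in WT and 0.45 (SE 0.164, adjusted p = 0.0257 by edgeR) in 9S/T-A, where the call was lost in 2 of 12 fits that left out 1 library each. Mvd ranged from 29.5 to 68.9 CPM in WT colon (median 38.1) and from 29.2 to 60.3 CPM in 9S/T-A colon (median 45.3). Both overlapped the SI levels given above, and Mvd rose by 0.76 in 9S/T-A (SE 0.185, adjusted p = 0.00225 by edgeR), with a value of 0.32 in WT (SE 0.164, adjusted p = 0.104 by edgeR).

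The other rises were Fasn, at 0.38 in WT and 0.64 in 9S/T-A, and the sterol reductase gene Tm7sf2, at 0.32 and 0.36, each called in both genotypes. The Tm7sf2 call was lost in WT without WT colon replicate 3 (adjusted p = 0.0558 by edgeR) and in 9S/T-A in 4 of 12 fits that left out 1 library each. Of Tm7sf2 exon bases, 15.3% overlap exons of Vps51. Lss at 0.62 and Acat2 at 0.53 passed the test in 9S/T-A and were at 0.32 and 0.22 in WT. Acat2 shared 39.1% of its 50-base stretches with Acat3, so that its counts are uncertain.

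Ebp, which moves the double bond in the sterol ring, showed the clearest fall. It ranged from 129 to 167 CPM in WT SI (median 152) and from 57.6 to 93.5 CPM in WT colon (median 79.6), and in 9S/T-A from 132 to 184 CPM in SI (median 174) and from 53.6 to 93.4 CPM in colon (median 84.0). No colon library reached any SI library. Ebp fell by 0.98 (SE 0.1, adjusted p = 5.2e-07 by edgeR) in WT and by 1.07 (SE 0.131, adjusted p = 4.67e-06 by edgeR) in 9S/T-A, and it was the only gene called lower with plain library totals as well (-0.27 in both genotypes).

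Sc5d acts just after Ebp. It ranged from 60.7 to 72.7 CPM in WT SI (median 63.7) and from 53.9 to 70.7 CPM in 9S/T-A SI (median 61.5), and all of these lay above the colon libraries given above. It fell by 0.81 (SE 0.096, adjusted p = 2.5e-06 by edgeR) in WT and by 0.59 (SE 0.116, adjusted p = 0.000428 by edgeR) in 9S/T-A, the latter turning to 0.21 with plain library totals. Relative to the median of all genes, Ebp and Sc5d were thus lower and Dhcr7 higher in colon, although all 3 act late in the sterol route.

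Elovl6 ranged from 68.0 to 77.2 CPM in WT SI (median 71.3) and from 56.1 to 87.6 CPM in 9S/T-A SI (median 72.9). The WT groups did not overlap, while the 9S/T-A groups did. It fell by 0.61 (SE 0.0672, adjusted p = 1.16e-06 by edgeR) in WT and by 0.51 (SE 0.112, adjusted p = 0.000945 by edgeR) in 9S/T-A, and was at 0.10 and 0.28 with plain library totals, both under the median of all genes. Its product, stearate, is the substrate of the desaturases that rose.

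Fdps, the farnesyl diphosphate synthase gene, ranged from 15.5 to 19.2 CPM in WT SI (median 17.5) and from 9.37 to 21.2 CPM in WT colon (median 11.2). In colon, replicate 3 lay above the SI range and the other 5 libraries below it. Fdps fell by 0.46 in WT (SE 0.171, adjusted p = 0.0274 by edgeR), with a value of -0.14 in 9S/T-A (SE 0.195, adjusted p = 0.544 by edgeR), and the call in WT was kept in 6 of 12 fits that left out 1 library each. The processed pseudogene Gm3571, which shares 12.1% of the 50-base stretches of Fdps, held 31366 counts over all libraries against 19724 for Fdps. Its log2 fold change in WT was -0.49 (adjusted p = 0.0368 by edgeR), so that how reads were divided between this pair is uncertain. Pmvk, the phosphomevalonate kinase gene, was called lower in WT alone, at -0.33 (SE 0.127, adjusted p = 0.034 by edgeR), and kept its call in 4 of 12 such fits.

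**Figure D3:**
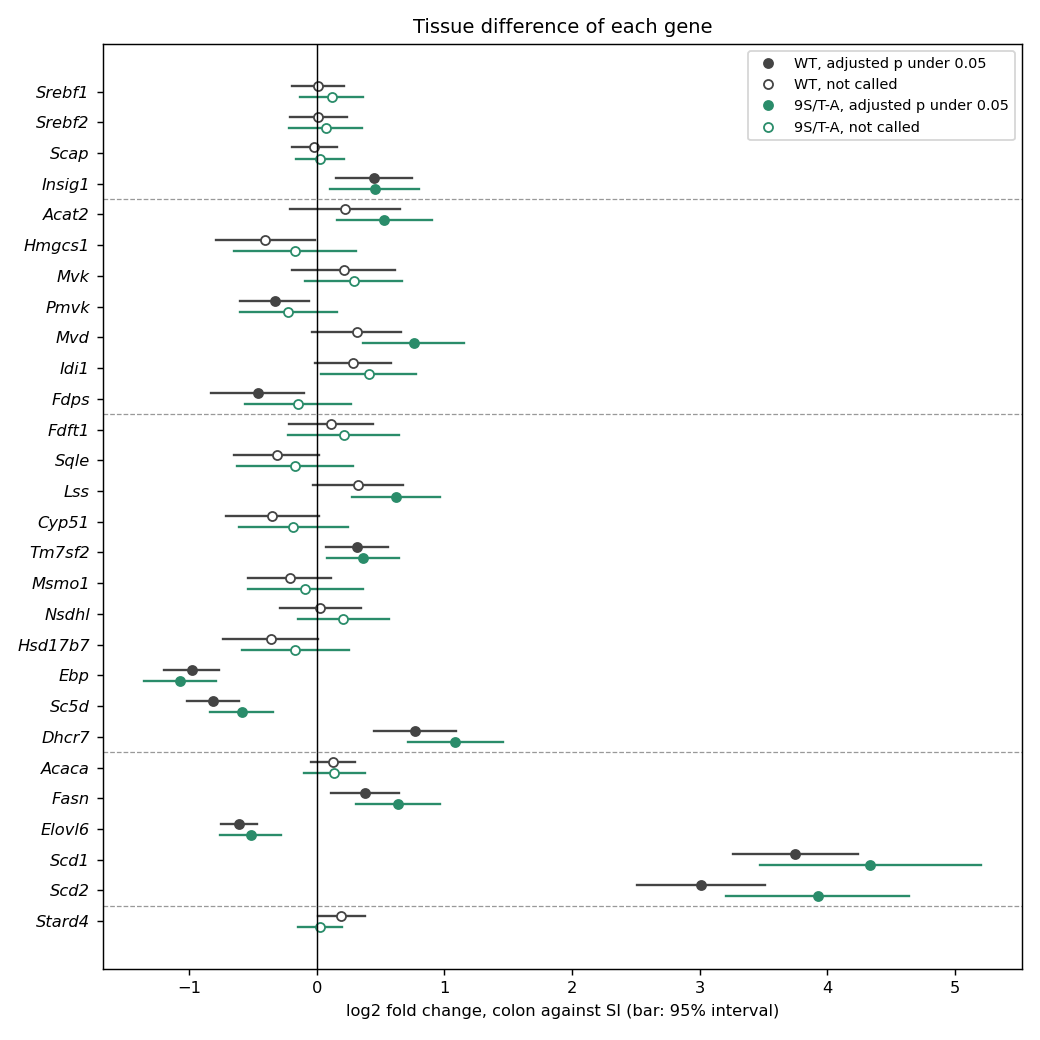
log2 fold change of colon against SI (x axis, points) for each gene with its 95% interval (bars), in WT (grey) and 9S/T-A (green), filled where the adjusted p was under 0.05, 6 libraries a group with TMM scaling. Scd1 and Scd2 lie between 3.01 and 4.34, Dhcr7 at 0.77 and 1.09 and Ebp at -0.98 and -1.07. With plain library totals Elovl6 in both genotypes, Sc5d in 9S/T-A, and Fdps and Pmvk in WT change sign.

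In all, 6 genes were called higher in both genotypes, 3 lower in both, 2 lower in WT alone and 3 higher in 9S/T-A alone, and 0 were called in opposite directions. Neither genotype gave a call for 14 genes, among them Srebf1, Srebf2, Scap, Hmgcs1, Sqle and Stard4. A call in a single genotype does not show that the genotypes differ, since the product of genotype and tissue passed in 0 of 28 genes. Libraries of the 2 tissues did not overlap for 6 genes in WT, against 43.5% of all genes, and for 5 in 9S/T-A, against 41.1%. Without WT colon replicate 3, the library with the highest levels, 15 of the 28 genes were called in WT. Fits that left out 1 WT library each called 10446 to 11316 of all genes, against 10794 with none left out. Without that replicate Hmgcs1 (-0.60), Cyp51 (-0.54), Hsd17b7 (-0.53), Sqle (-0.47) and Msmo1 (-0.36) were called lower in colon as well. Over the 12 such fits Hmgcs1 was called in 2, and Cyp51, Hsd17b7, Sqle and Msmo1 in 1 each. Within the sexes, 12 genes were called in WT and 6 in 9S/T-A among female libraries, where 46.2% and 40.3% of all genes were, and 10 in WT and 17 in 9S/T-A among male libraries, where 55.1% and 55.5% were.

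**Figure D4:**
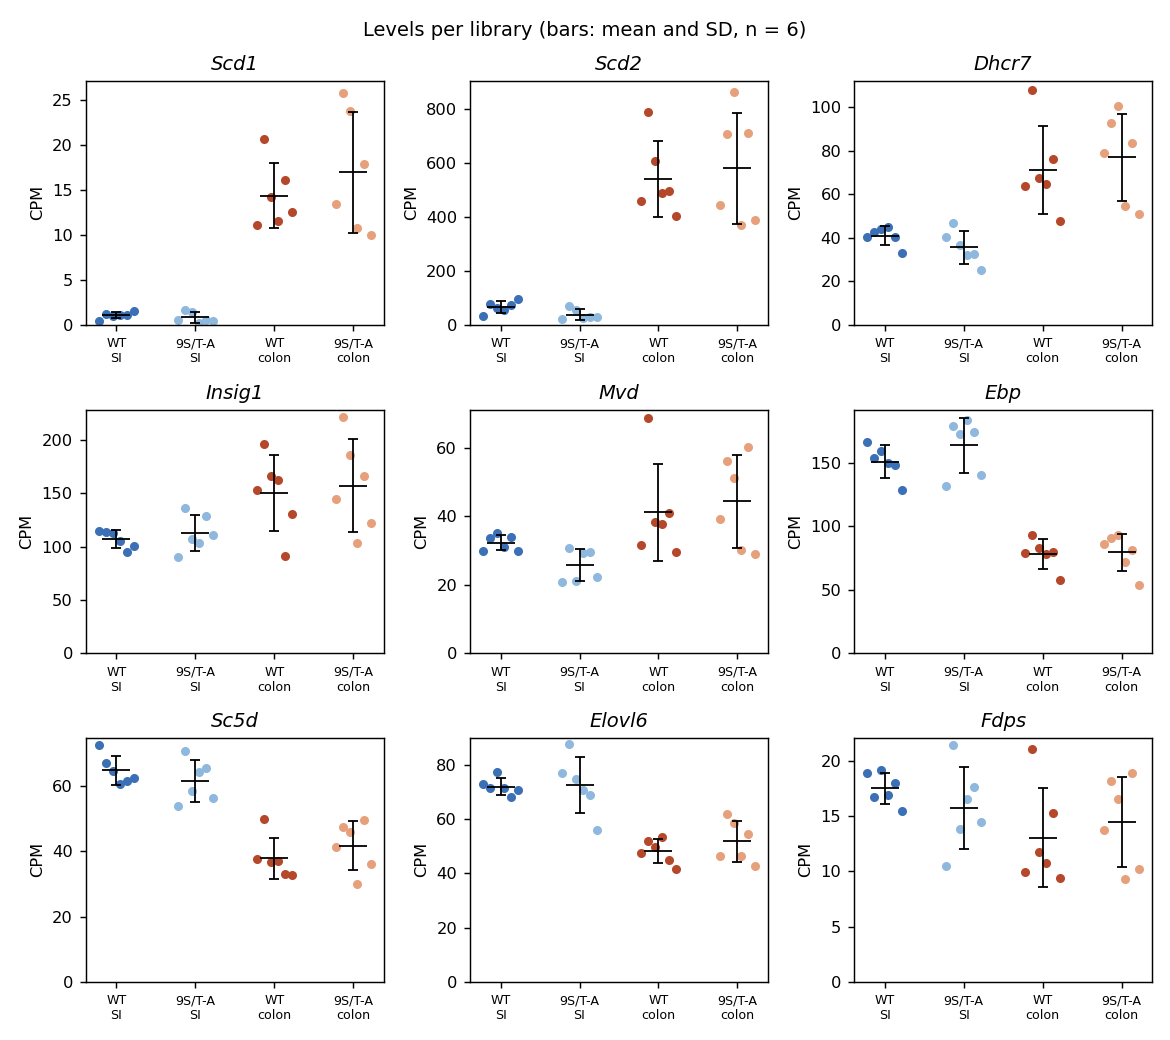
Level in CPM (y axes, from 0) of the 9 genes among the 4 largest called rises or falls in either genotype, with 1 point for a library in order of its number and black bars for the mean and SD (n = 6). Scd1, Scd2, Dhcr7, Ebp and Sc5d separate the 12 SI from the 12 colon libraries, while Insig1, Mvd, Elovl6 and Fdps overlap between the tissues.

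Of the other 28 lipid genes, 22 were called between the tissues in each genotype, against 63.6% of all genes in WT and 60.9% in 9S/T-A. The largest difference was that of Soat2, which esterifies cholesterol in absorptive cells: it averaged 39.4 ± 9.29 CPM in WT SI and 0.868 ± 0.114 CPM in WT colon (SD, n = 6), a fall of 5.53 on the log2 scale, and it fell by 5.81 in 9S/T-A. The sum of 9 listed absorptive genes was also higher in SI, at 1934 to 6320 CPM against 359 to 694 CPM in colon. The list was Alpi, Fabp1, Fabp2, Apoa1, Apoa4, Sis, Slc5a1, Car1 and Aqp8. Its sum depends on which genes were listed and does not give the share of absorptive cells in either tissue. The part of these genes in the Soat2 difference was not tested. Fads1, which encodes a desaturase of polyunsaturated fatty acids, fell by 2.86 in WT and by 2.28 in 9S/T-A. Mylip, an LXR target whose product degrades lipoprotein receptors, rose by 2.65 and 2.08 on the same scale. Acss2, which makes acetyl-CoA from acetate, rose by 2.11 in WT and 2.21 in 9S/T-A.

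The libraries of a group differed from each other along the whole pathway, and more so in colon. The median coefficient of variation of the 28 genes was 8.68% in WT SI, 16.6% in 9S/T-A SI, 26.2% in WT colon and 26.8% in 9S/T-A colon. Over 17953 genes it was 16.6%, 17.8%, 14.3% and 16.3%. The spread was larger in WT colon than in WT SI for 26 of the 28 genes, against 44.7% of all genes, and larger in 9S/T-A colon than in 9S/T-A SI for 25, against 47.9% of all genes. Within SI, 23 of the 28 genes spread more in 9S/T-A than in WT, against 56.3% of all genes. Without WT colon replicate 3 the median in WT colon was 14.8%, and 23 genes still spread more than in WT SI.

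This spread was shared between genes. Deviations of log2(CPM + 1) from the group mean were correlated over 12 libraries in each tissue for the 18 genes of the mevalonate and sterol steps. Over their 153 pairs the median r was 0.761 in SI (from -0.008 to 0.985) and 0.902 in colon (from 0.466 to 0.986). The points share libraries, depth and scaling, and genes are not independent, so these values are a description. Each group mean covers both sexes, so the deviations also hold the differences between males and females given further on. No such r over other genes is given beside them. In colon the median r was 0.863 over 11 libraries without WT colon replicate 3.

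The other roles followed the 18 genes to differing degrees. Correlation with their mean was 0.767 in SI and 0.863 in colon for Srebf2, whose protein mainly drives cholesterol synthesis. For Srebf1, whose protein mainly drives fatty acid synthesis, it was 0.066 in SI and 0.853 in colon. Scd1 and Scd2 gave 0.005 and 0.121 in SI, against 0.869 and 0.919 in colon. Scd1 lay at only 0.252 to 1.69 CPM in SI, where counting error limits its r. Acaca was at 0.758 in SI and 0.833 in colon and Fasn at 0.443 and 0.793. Within the 18 genes Dhcr7 followed the others least in SI, at 0.375, and was at 0.944 in colon.

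The deviations were largest in a few colon libraries. The mean deviation of the 18 genes was 0.63 in WT colon replicate 3, which was highest in its group for all 18, and -0.38 in WT colon replicate 7, which was lowest for 15. In 9S/T-A colon replicates 5 and 7 lay at -0.56 and -0.41, and replicates 6, 3 and 4 at 0.37, 0.33 and 0.26. In SI the deviations were smaller, from -0.24 to 0.13 in WT and from -0.28 to 0.31 in 9S/T-A. Scd1 and Scd2 departed from the rest in SI: WT replicate 2 had the highest mean of the 18 genes (0.13) and the lowest of the desaturase pair (-0.71).

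**Figure D5:**
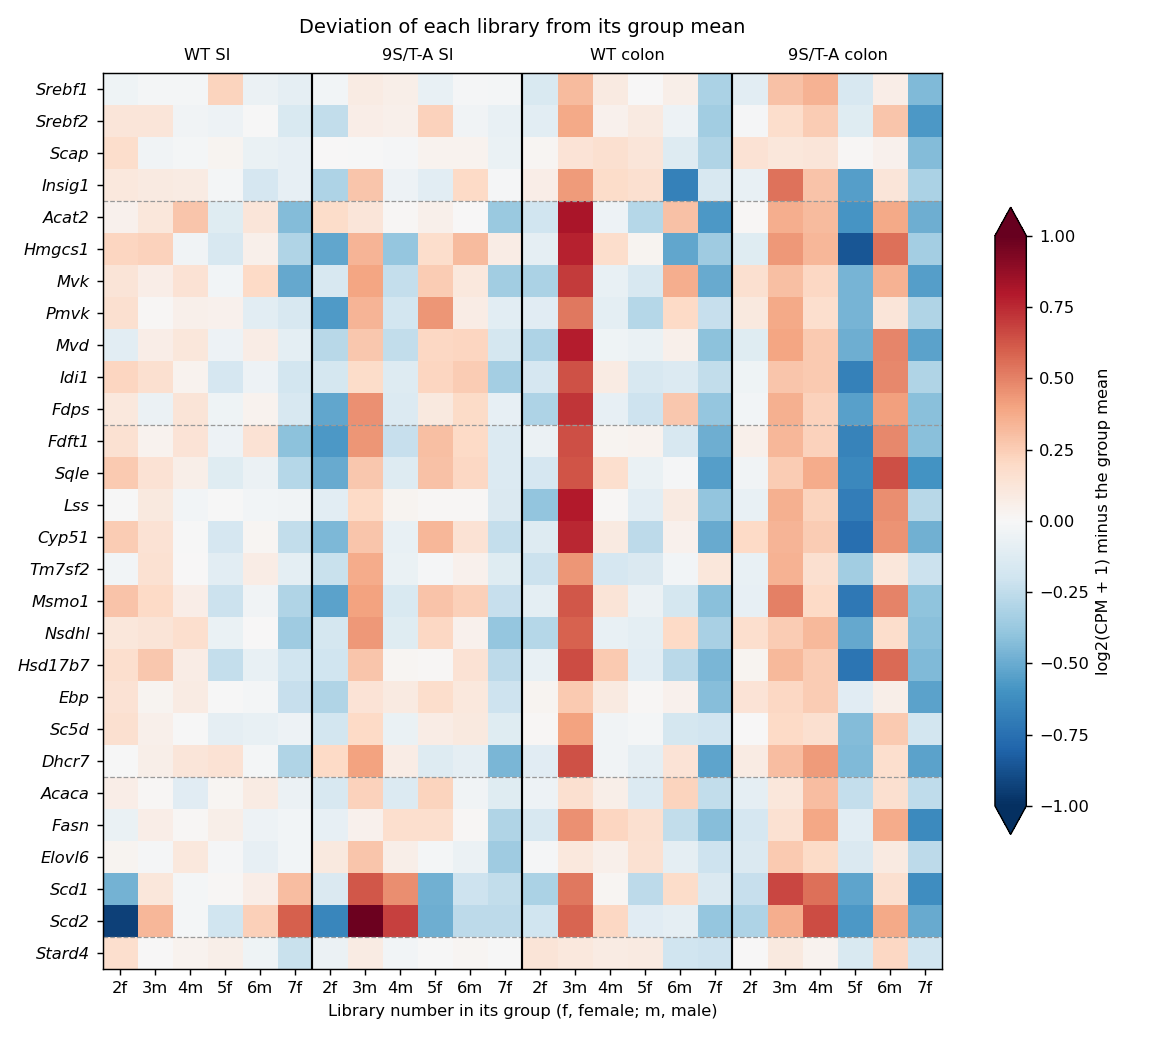
Deviation of log2(CPM + 1) from the group mean for each gene (y axis) in each of the 24 libraries (x axis, by group, number and sex), red above and blue below, with the color scale ending at 1 in either direction. Columns of a single color mark libraries in which most of the pathway was high or low, such as WT colon replicate 3 (mean deviation 0.63 over the 18 mevalonate and sterol genes) and 9S/T-A colon replicate 5 (-0.56).

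The sexes are given by the labels, and comparing them was chosen after the data had been seen. In colon the mean of the 6 male libraries was above that of the 6 female libraries for all 28 genes, with log2 differences from 0.09 to 0.74 and a median of 0.52, where 49.6% of all genes had a difference above 0. With genotype as a covariate, 5 genes passed the test, all higher in males (edgeR over 16997 genes), against 0.294% of all genes in either direction and 0.253% higher, and 25 had an unadjusted p under 0.05, against 20.4% of all genes. Scd1 ranged from 10.03 to 13.4 CPM in females and from 14.2 to 25.9 CPM in males, without overlap, and rose by 0.74 (SE 0.128, adjusted p = 0.0363 by edgeR). Scd2 ranged from 368 to 487 CPM in females and from 495 to 861 CPM in males, again without overlap, and rose by 0.69 (SE 0.121, adjusted p = 0.0368 by edgeR). Acaca, the cytosolic acetyl-CoA carboxylase gene that commits acetyl-CoA to fatty acids, ranged from 41.6 to 48.4 CPM in females and from 51.8 to 63.8 CPM in males, and rose by 0.33 (SE 0.0582, adjusted p = 0.0368 by edgeR). The other 2 called genes, Acat2 (0.73) and Fdps (0.67), overlapped between the sexes.

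Each number has the same sex in all groups, so sex and number cannot be told apart, and an exact permutation test over the 6 numbers cannot go below p = 0.1, the value reached for 23 of the 28 genes. The count of 5 became 0 without number 3 and 0 within each genotype, and 19 with DESeq2. In 9S/T-A colon the goblet sum was also higher in males (57510 to 73240 CPM) than in females (30460 to 50370 CPM), while in WT colon it overlapped (30700 to 48750 and 30190 to 40190 CPM). The cycling sum (125 to 158 CPM in males and 77.8 to 124 CPM in females) and the sum of 4 stem cell genes (30.3 to 37.9 and 46.9 to 48.7 CPM) likewise did not overlap in 9S/T-A colon, while both overlapped in WT colon. The same held for the sum of Epcam, Cdh1 and Krt8, at 4219 to 4637 and 2845 to 4144 CPM in 9S/T-A colon. The part of these markers in the differences was not tested. In SI the male mean was higher for 27 of the 28 genes, where 50.9% of all genes had a difference above 0. There 0 of the 28 were called by edgeR and 0 by DESeq2, against 0.0554% of all genes, and 3 had an unadjusted p under 0.05, against 6.76%. The product of sex and tissue was above 0 for all 28 genes, against 51.0% of all genes. It passed in 0 of them by edgeR and 0 by DESeq2, and in 0 of 17953 genes by edgeR, with 12 of the 28 at an unadjusted p under 0.05, against 4.9% of all genes. Because these genes moved together from library to library, their signs and unadjusted p-values in the sex comparisons are not separate observations.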

How the data were processed

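Per the labels and the study's methods, stranded 50-base single-end libraries were aligned to GRCm38 with TopHat2 2.1.1. The authors deposited raw counts per gene from featureCounts (Subread 1.5.2), taken over exons by strand from primary alignments and not normalized. Reads matching several places, or overlapping exons of 2 genes on a strand, make counts of paralogues and pseudogenes uncertain. Symbols came from GENCODE M21 (44671 of 45513 genes named). R 4.3.3 and edgeR 4.0.16 were applied to the counts as deposited. Genes passing filterByExpr were scaled by TMM and tested with the two-sided quasi-likelihood test, and p-values were adjusted by Benjamini and Hochberg over all genes tested (called under 0.05). Genotype was compared inside a tissue, tissue inside a genotype, and their product in 1 fit of the 24 libraries. The sexes were compared with genotype as a covariate. DESeq2 1.42.0 and other scalings, filters and sample sets were alternatives. The scripts were tested on simulated data. The 28 genes and the lists were chosen with earlier results of these data known. All 28 are named. Values per library are given for the genes with the 4 smallest p in each genotype comparison and the 4 largest called rises and falls in each tissue comparison, and companion genes are named where called for genotype or among the 3 largest tissue differences. Several entries of the companion list are counted but not named.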

Additional observations from a re-analysis of the deposited data

Results flagged for a closer look

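In 11 of 112 sets of 6 libraries (28 genes in 4 groups) a single library lay so far from the others that its gap to the nearest, as a share of the whole range of the group, passed Dixon's 95% critical value for 6 values. Chance gives about 1 in 20 such sets. In WT colon the highest library was replicate 3 for 6 genes: Mvd (68.9 CPM, the next 40.9, share 0.709), Idi1 (168 CPM, the next 114, share 0.701), Fdft1 (193 CPM, the next 126, share 0.637), Lss (101 CPM, the next 61.6, share 0.687), Cyp51 (200.4 CPM, the next 126, share 0.635) and Sc5d (49.9 CPM, the next 37.8, share 0.71). These 6 genes act in the mevalonate and sterol steps and moved together in that library, so they do not count as 6 separate events.

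The other 5 were spread over groups. In WT SI the highest library stood apart for Srebf1 (replicate 5, 125 CPM, the next 106, share 0.785) and Lss (replicate 3, 50.6 CPM, the next 47.0, share 0.761), and the lowest for Mvk, the mevalonate kinase gene (replicate 7, 17.7 CPM, the next 25.2, share 0.635). The lowest library also stood apart for Acat2 in 9S/T-A SI (replicate 7, 13.1 CPM, the next 17.2, share 0.627) and for Scap in 9S/T-A colon (replicate 7, 50.6 CPM, the next 69.5, share 0.739).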

How the results depend on the processing

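The count of pathway genes called for genotype was 0 in colon and 0 for the product of genotype and tissue under each alternative run, and 0 in SI under each except the replicate block. The labels do not say that a replicate number marks a mouse, and not every pair of same-numbered libraries correlated over 0.1 in deviations. Between SI and colon this held for 5 of 6 pairs in each genotype (r from 0.0831 to 0.456 in WT and from 0.0926 to 0.545 in 9S/T-A), and libraries correlated best with their own number in 5 (WT) and 6 (9S/T-A) of 6, a hint from the data that numbers may be shared there. Between genotypes it held for 3 (SI) and 5 (colon) of 6, with 2 and 4 best with their own number. A shared number cannot mark 1 mouse there, since each mouse belonged to 1 line. With the replicate block, pathway genes called were 1 in SI for genotype (Scd2 at -0.87, adjusted p = 0.047 by edgeR) and 18 for tissue in WT, and over all genes 477 were called for genotype in SI (without it 315), 385 in colon (54) and 342 for the product (74). DESeq2 called 788, 238 and 258 of all genes, 1 fit to all 24 libraries 520 and 103, no gene filter 90 and sex as a covariate 89 in colon. Female libraries alone gave 18, 5 and 3 of all genes and 6 pathway genes for tissue in 9S/T-A, and leaving out number 7 gave 43 for the product. An adjusted p under 0.1 gave 561, 109 and 136 of all genes. For tissue in WT it gave 18 pathway genes and 11774 of all genes. Plain library totals gave 24 (WT) and 27 (9S/T-A) pathway genes for tissue and turned the sign of Fdps (0.25), Pmvk (0.39) and Elovl6 (0.10) in WT and of Elovl6 (0.28) and Sc5d (0.21) in 9S/T-A, through the shift of all genes given above. Leaving out 1 library at a time gave 188 to 550 of all genes for genotype in SI, 30 to 72 in colon and 50 to 112 for the product. For tissue it gave 9 to 15 (WT) and 10 to 14 (9S/T-A) pathway genes. Over all genes the tissue fits called 10446 to 11316 (WT) and 9945 to 10873 (9S/T-A). For males against females in colon, pathway genes called (5) became 19 with DESeq2, 1 with plain totals, 10 with no gene filter, 1 with no genotype covariate, 0 in WT, 0 in 9S/T-A, 1 without number 7, 0 without number 3, 14 at an adjusted p under 0.1 and 0 to 10 with 1 library left out. All genes called (50) became 630, 18, 115, 13, 1, 2, 28, 7 and 220 in that order, and 14 to 79. In SI all genes called for sex (9) became 35 with DESeq2, 2 in WT, 2 in 9S/T-A and 5 without number 3, and 9 to 12 with 1 library left out. For sex by tissue DESeq2 called 4. Where not stated above, the cause was not tested. The female and male sets, the omission of numbers 7 and 3, the sex comparisons and the description without WT colon replicate 3 were chosen after seeing the data. Counts were lowest for Scd1 in SI, down to 9 in a library, and counting error limits its values there most.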
